A study of Arabidopsis thaliana with 15 samples.

Results

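The genes described here are 48 loci of auxin signalling in Arabidopsis thaliana: 28 Aux/IAA repressors, 15 ARF transcription factors and 5 TIR1/AFB receptors. They were taken by locus ID from a list of the 3 families, and all 48 were found among the 33201 genes of the expression table. RNA-seq compared syd-5 mutants in the Col-0 background (3 libraries) with wild type Col-0 (WT, 3 libraries). Both were whole seedlings 14 days old, grown on MS plates in long days. The syd-5 allele affects SPLAYED (SYD), a SWI/SNF chromatin remodelling ATPase, and RNA came from this 1 mutant allele only. The series also holds 9 ChIP and input libraries for H3K27me3 and for a GFP-tagged SYD in syd-5, not analysed here.

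Auxin acts by removing repressors. The hormone binds between a TIR1/AFB F-box protein, part of an SCF ubiquitin ligase, and an Aux/IAA protein, which is then degraded. Aux/IAA proteins otherwise sit on ARF transcription factors at auxin response genes and bring in TOPLESS (TPL) co-repressors. Many Aux/IAA genes are themselves induced by auxin, so that their transcripts are both part of the pathway and an output of it.

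Expression was given as 1 value per gene and genotype, read as FPKM (fragments per length of transcript and per number of mapped fragments), so that levels of different genes can be compared per length. No value per library was used, so neither a standard deviation nor the depth of a library stands behind any value. Whether the 3 libraries of a genotype came from separately grown plants is not stated, and the spread behind the authors' p-values may be technical. Genes are said to have risen or fallen only where q, the authors' adjusted p, was at most 0.05, and each fold change is the log2 ratio of the syd-5 value to the WT value. SYD itself was at 2.53 FPKM in syd-5 and 13.1 FPKM in WT (log2 -2.37, with q = 0.000351 in the authors' deposited table), with a listed span shared with another gene. The summed FPKM of all genes was 948154 in syd-5 and 865406 in WT, 0.13 on the log2 scale. The median tested gene stood at log2 -0.02, and at -0.15 once folds were divided by that ratio of sums.

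The leaf marker genes were at high levels in both genotypes, and 2 of 4 rose: LHCB1.3 was at 7891 FPKM in syd-5 and 3984 FPKM in WT, and LHCA3 at 2265 FPKM in syd-5 and 1013 FPKM in WT. Of 7 root marker genes, 5 were tested and 1 fell, the phosphate transporter gene PHT1;1 (11.2 FPKM in syd-5, 24.3 FPKM in WT), while the root hair, endodermis and Casparian strip markers EXPA7, MYB36 and CASP1 lay between 1.53 and 3.80 FPKM in both genotypes and were not called. The root markers summed to 20.4 FPKM in syd-5 and 32.8 FPKM in WT, a difference carried by PHT1;1, since the other 6 summed to 9.19 FPKM in syd-5 and 8.49 FPKM in WT. Flower markers summed to 0.326 FPKM in syd-5, with AP1 listed at 0, and to 2.88 FPKM in WT, and 2 of 2 tested fell. These 2, AP1 and AP3, were low in WT as well (1.28 and 1.12 FPKM). The 2 seed markers, CRA1 and OLEO1, were not called and summed to 3.61 FPKM in syd-5 and 1.01 FPKM in WT. Of 5 reference genes ACT2 rose (434 FPKM in syd-5, 327 FPKM in WT), UBQ10 fell (533 FPKM in syd-5, 766 FPKM in WT) and 3 were not called. For scale, 14.1% of all tested genes rose and 18.0% fell, and these marker lists are short. The part of tissue makeup in the results below was not tested. In RNA of whole seedlings, fewer cells of a type and less RNA per cell cannot be told apart.

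Across the 3 families, changes were frequent among Aux/IAA genes, small among ARF genes and seen in a single receptor gene. Of the 48 members 45 were tested by the authors, of which 18 were called, 10 higher and 8 lower in syd-5. That is 40.0% of the tested members, read against 32.1% called among all 19868 tested genes. By direction, 22.2% of tested members rose, against 14.1% of all tested genes, and 17.8% fell, against 18.0%. These shares depend on level. With a mean of both genotypes of at least 10 FPKM, 24.2% of 33 tested members rose, against 17.2% of all such tested genes. At that level 21.2% of members fell, against 15.7%, so both directions stood above the share of all genes. The differences between shares were not tested. Aux/IAA genes had 12 of 25 called, with 7 that rose and 5 that fell. ARF genes had 5 of 15 called, with 2 that rose and 3 that fell, and TIR1/AFB genes had 1 of 5, which rose. The median log2 fold change was 0.19 for tested Aux/IAA genes, 0.02 for ARF genes and 0.02 for TIR1/AFB genes. When folds were divided by the ratio of summed FPKM, the Aux/IAA median shrank to 0.059. The ARF and TIR1/AFB medians then turned negative (-0.11 and -0.12). Changes of at least 2-fold were called for 5 members, 11.1% of those tested, against 11.6% of all tested genes, and these 5 were Aux/IAA genes. With at least a 1.5-fold change 10 members were called (22.2%, against 21.5% of all tested genes), and at q of at most 0.01 there were 11 (24.4%, against 22.6%). Adjusted over all listed genes, 17 were called (37.8%, against 28.5%). The called members spanned log2 -1.21 to 1.97.

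**Figure D1:**
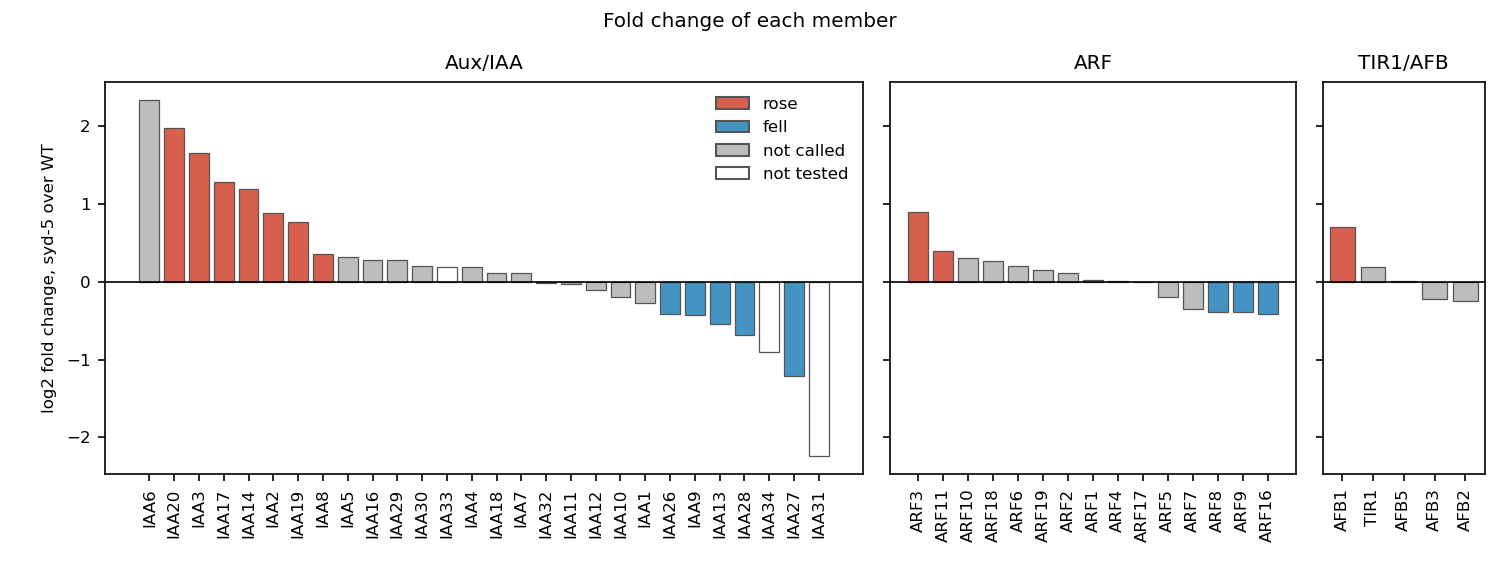
Log2 fold change of each of the 48 members, syd-5 over WT, by family, with bars coloured by the authors' call. The called Aux/IAA genes run from IAA20 at 1.97 down to IAA27 at -1.21, the called ARF genes lie between 0.90 and -0.41, and AFB1 at 0.70 is the called receptor gene.

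**Figure D2:**
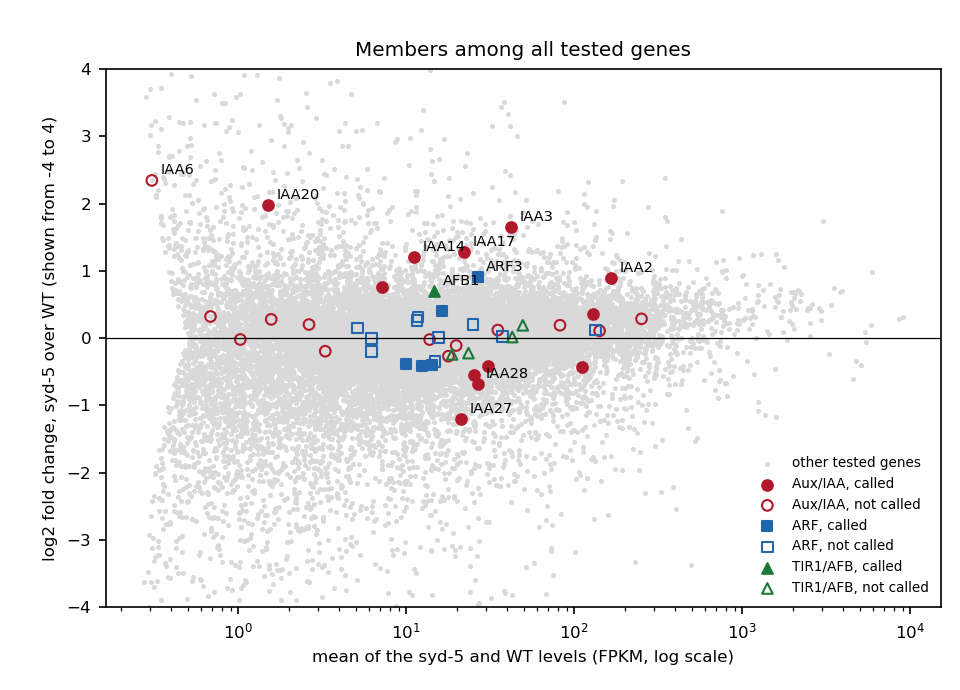
Log2 fold change against the mean of the syd-5 and WT levels (FPKM, log scale) for all tested genes in grey and for the members in colour, filled where called. The members lie inside the range of the other tested genes, with IAA3 at 1.65 and IAA27 at -1.21 as the outer called members above 10 FPKM.

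Among the Aux/IAA genes, IAA3 (SHY2; AT1G04240, TAIR10 chromosome 1, 1128188 to 1129551) had the largest rise among members above 10 FPKM. IAA3 restrains cell division at the transition zone of the root meristem, where cytokinin and auxin signalling meet. IAA3 transcripts were at 64.2 FPKM in syd-5 and 20.4 FPKM in WT, a rise of 3.15-fold (log2 1.65, with q = 0.000351 in the authors' deposited table). Its neighbour on the chromosome, IAA17 (AXR3; AT1G04250, 1136258 to 1138613), lies 6706 bases away. IAA17, whose stabilised form in the axr3 mutants gives strong auxin phenotypes, was at 31.4 FPKM in syd-5 and 12.9 FPKM in WT, a rise of 2.43-fold (log2 1.28, with q = 0.000351 in the authors' deposited table). Both genes of this adjacent pair were therefore higher in the mutant.

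IAA14 and IAA2 also have a family member close by, and in each case that gene was not called. IAA14 (SLR; AT4G14550, chromosome 4, 8347822 to 8350019), known for blocking lateral root initiation when stabilised, rose 2.30-fold, with 15.5 FPKM in syd-5 and 6.74 FPKM in WT (log2 1.20, with q = 0.000351 in the authors' deposited table). IAA1, its neighbour 11038 bases away and a classic early auxin-induced gene, was at 16.2 FPKM in syd-5 and 19.5 FPKM in WT and was not called (log2 -0.27, with q = 0.243 in the authors' deposited table). IAA1 was thus at 1.04 times IAA14 in syd-5 and at 2.89 times in WT.

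IAA2 (AT3G23030, chromosome 3, 8180768 to 8181800), another early auxin-induced gene, rose 1.85-fold, with 216 FPKM in syd-5 and 116 FPKM in WT (log2 0.89, with q = 0.000351 in the authors' deposited table). It added 99.4 FPKM, more than any other member of the family. IAA7 (AXR2), 12878 bases away with AT3G23040 between them and a brake on auxin responses in root and shoot when stabilised, was at 147 FPKM in syd-5 and 136 FPKM in WT and was not called (log2 0.11, with q = 0.616 in the authors' deposited table). By level IAA2 had rank 2 in syd-5 and rank 4 in WT.

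The other members that rose were IAA20, IAA19 and IAA8. IAA20, which lacks the canonical degron through which auxin triggers turnover, had 2.40 FPKM in syd-5 and 0.610 FPKM in WT, a 3.93-fold rise that rests on low levels (log2 1.97, with q = 0.00920 in the authors' deposited table). IAA19 (MSG2), which acts in hypocotyl tropisms and elongation, was at 9.05 FPKM in syd-5 and 5.32 FPKM in WT (1.70-fold, log2 0.77, with q = 0.00227 in the authors' deposited table). IAA8 rose 1.28-fold, with 146 FPKM in syd-5 and 114 FPKM in WT (log2 0.36, with q = 0.0393 in the authors' deposited table). This was the smallest called change of any member. The call of IAA8 was lost when p from the authors' deposited table was adjusted anew over all listed genes (adjusted p = 0.0656 by Benjamini-Hochberg).

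The 5 Aux/IAA genes that fell did so by 1.33-fold to 2.31-fold. IAA27 (PAP2, a phytochrome-associated protein; AT4G29080, chromosome 4, 14323361 to 14325328) fell 2.31-fold, to 12.8 FPKM in syd-5 against 29.5 FPKM in WT (log2 -1.21, with q = 0.000351 in the authors' deposited table). IAA28 (AT5G25890), a repressor of lateral root formation, fell to 20.4 FPKM in syd-5 against 32.8 FPKM in WT (1.61-fold, log2 -0.69, with q = 0.000351 in the authors' deposited table). IAA13, a relative of the embryonic root regulator IAA12 (BDL), fell to 20.5 FPKM in syd-5 against 29.9 FPKM in WT (log2 -0.55, with q = 0.00123 in the authors' deposited table). The listed span of IAA13 is shared with AT2G33300, which was at or near 0 in both genotypes. IAA9, a repressor linked to leaf shape and fruit set in tomato, fell to 94.6 FPKM in syd-5 against 128 FPKM in WT (log2 -0.43, with q = 0.0117 in the authors' deposited table). IAA26 (PAP1), another phytochrome-associated protein, fell to 26.3 FPKM in syd-5 against 35.05 FPKM in WT (log2 -0.41, with q = 0.0152 in the authors' deposited table).

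Calls were also compared within pairs of close relatives. IAA8 and IAA9, close relatives in a branch that also holds IAA27, were the 1 pair of relatives out of 18 examined over the 3 families in which both genes were called, and they went opposite ways. IAA8 was at 1.54 times IAA9 in syd-5 and 0.890 times in WT, so that their order turned round. In 11 further pairs 1 gene was called and the other was not, and in 6 neither was. For scale, 40.0% of tested members and 32.1% of all tested genes were called. How many split pairs these shares alone would give was not computed. A called gene paired with one not called is not in itself a difference between them. IAA27, which fell, was in none of the pairs. IAA2 stood at 13.3 times its relative IAA1 in syd-5 and 5.97 times in WT. IAA4 was at 87.6 FPKM in syd-5 and 76.8 FPKM in WT (q = 0.313 in the authors' deposited table), which was 1.37 times IAA3 in syd-5 and 3.77 times in WT. IAA16, with the highest level in the family, was at 276 FPKM in syd-5 and 226 FPKM in WT (q = 0.125 in the authors' deposited table), or 8.79 times IAA17 in syd-5 and 17.5 times in WT. The differences within pairs were not tested, since the table holds no value per library.

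Further relatives of called genes were not called either. IAA12 (BDL), which acts with ARF5 in embryo patterning, was at 19.1 FPKM in syd-5 and 20.6 FPKM in WT, next to IAA13. IAA18 was at 36.5 FPKM in syd-5 and 33.6 FPKM in WT, next to IAA26. IAA30, another protein without the canonical degron, was at 2.82 FPKM in syd-5 and 2.45 FPKM in WT, next to IAA20.

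Of the other Aux/IAA genes not called, IAA10, IAA11, IAA29, IAA32 and IAA5 had log2 fold changes between -0.20 and 0.32. IAA10 was at 3.07 FPKM in syd-5 and 3.52 FPKM in WT, and IAA11 at 13.7 FPKM in syd-5 and 13.9 FPKM in WT. IAA6 had the largest fold of the tested members and was not called, with levels near 0: 0.512 FPKM in syd-5 and 0.101 FPKM in WT (log2 2.34, with q = 0.0992 in the authors' deposited table). The authors did not test IAA31, IAA33 and IAA34, which were under 0.5 FPKM in both genotypes and, as a group with IAA20, IAA30 and IAA32, lack the canonical degron. IAA31 was at 0.0267 FPKM in syd-5 and 0.126 FPKM in WT. IAA33 was at 0.1102 FPKM in syd-5 and 0.0963 FPKM in WT, and IAA34 at 0.216 FPKM in syd-5 and 0.403 FPKM in WT. These 6 genes summed to 6.59 FPKM in syd-5 and 4.73 FPKM in WT, a small part of the family.

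**Figure D3:**
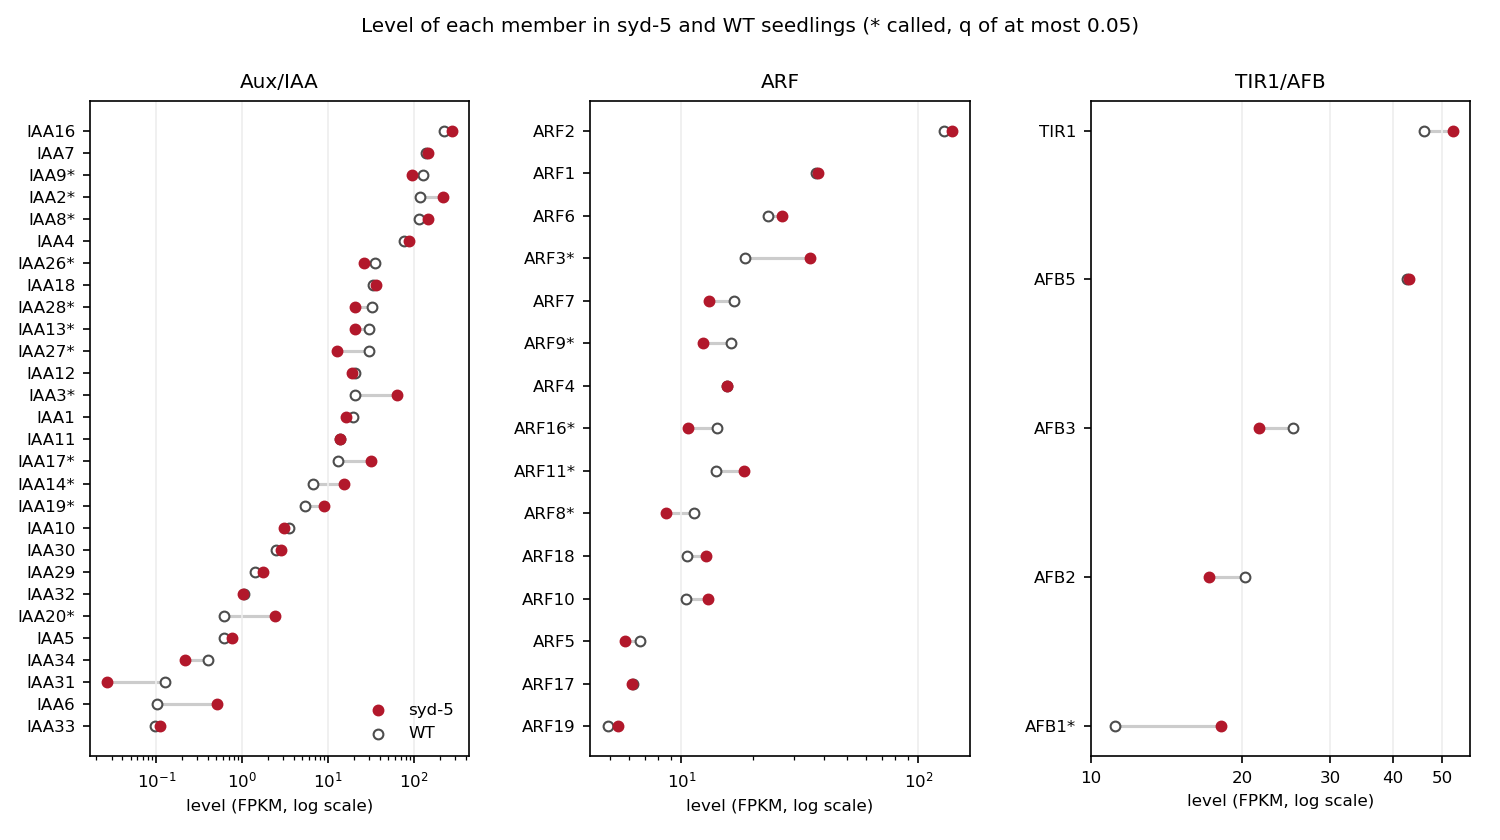
Level of each member (FPKM, log scale) in syd-5 (filled) and WT (open), ordered by the WT level within each family, with an asterisk for called members. Aux/IAA levels reach from under 1 FPKM to 276 FPKM (IAA16 in syd-5), ARF levels from 4.88 to 139 FPKM and receptor levels from 11.2 to 52.6 FPKM.

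A few genes made up most of the Aux/IAA transcripts in both genotypes. The family summed to 1265 FPKM in syd-5 and 1067 FPKM in WT, a ratio of 1.18 (log2 0.24, or 0.11 once divided by the ratio of summed FPKM of all genes). In syd-5 the 5 most abundant, IAA16, IAA2, IAA7, IAA8 and IAA9, held 69.5% of the sum, and the same 5 held 67.5% in WT. IAA2 held 17.1% in syd-5 and 10.9% in WT, and IAA3 held 5.07% in syd-5 and 1.91% in WT. IAA9 held 7.48% in syd-5 and 11.95% in WT, and IAA27 held 1.01% in syd-5 and 2.77% in WT. The 7 members that rose summed to 484 FPKM in syd-5 and 276 FPKM in WT, and the 5 that fell to 175 FPKM in syd-5 and 255 FPKM in WT. These sums describe the called genes and were not tested.

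**Figure D4:**
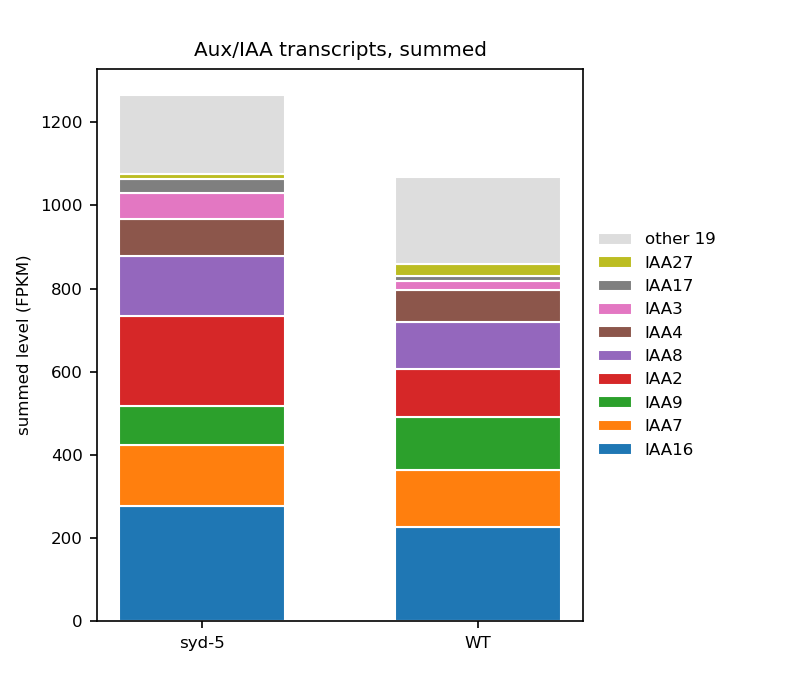
Summed Aux/IAA level (FPKM) in syd-5 and in WT, divided among 9 named genes and the other 19. The stack reaches 1265 FPKM in syd-5 and 1067 FPKM in WT, with IAA2 and IAA3 thicker and IAA9 and IAA27 thinner in syd-5.

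The ARF genes changed little in size. All 15 were tested, and their levels summed to 360 FPKM in syd-5 and 334 FPKM in WT (log2 0.11, and -0.02 once divided by the ratio of summed FPKM of all genes). ARF3 (ETT; AT2G33860, chromosome 2, 14325269 to 14328978), a factor of abaxial identity and gynoecium patterning, was the 1 ARF gene called with more than a 1.5-fold change. It rose 1.87-fold, with 34.8 FPKM in syd-5 and 18.6 FPKM in WT (log2 0.90, with q = 0.000351 in the authors' deposited table). ARF3 is regulated by small RNAs from TAS3 together with ARF2 and ARF4, and these were not called. ARF2, which limits organ growth and was the most abundant ARF transcript, was at 139 FPKM in syd-5 and 128 FPKM in WT (log2 0.12, with q = 0.612 in the authors' deposited table). ARF4, which shares its abaxial role with ARF3, was at 15.6 FPKM in syd-5 and 15.5 FPKM in WT (log2 0.01, with q = 0.977 in the authors' deposited table). The TAS3 precursor was at 43.8 FPKM in syd-5 and 38.4 FPKM in WT and was not called (q = 0.439 in the authors' deposited table).

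The remaining repressor-type ARF genes differed by less than 1.5-fold. ARF11 rose to 18.4 FPKM in syd-5 against 14.0 FPKM in WT (log2 0.40, with q = 0.0221 in the authors' deposited table), and its relative ARF18 was not called, at 12.6 FPKM in syd-5 and 10.5 FPKM in WT. ARF9 fell to 12.4 FPKM in syd-5 against 16.2 FPKM in WT (log2 -0.39, with q = 0.0245 in the authors' deposited table). ARF1, which acts with ARF2 in ageing and in the shedding of floral organs, was at 37.7 FPKM in syd-5 and 37.1 FPKM in WT (log2 0.02, with q = 0.930 in the authors' deposited table).

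Of the 3 ARF genes cleaved under miR160, 1 was called (33.3%, against 32.1% of all tested genes). ARF16, which patterns the root cap together with ARF10, fell to 10.6 FPKM in syd-5 against 14.1 FPKM in WT (log2 -0.41, with q = 0.0255 in the authors' deposited table). ARF10 stood at 13.0 FPKM in syd-5 and 10.5 FPKM in WT and was not called (log2 0.31, with q = 0.104 in the authors' deposited table). ARF10 was thus listed above ARF16 in syd-5 and below it in WT, and the difference between the 2 genes was not tested. Of the members on chromosome 2, ARF10 lies nearest to SYD, 41.2 kb away. ARF17 was at 6.21 FPKM in syd-5 and 6.24 FPKM in WT. The 3 MIR160 precursor genes were listed at 0 in both genotypes, as were both precursors each of miR393 and miR390. Their listed spans are short (MIR160A on chromosome 2, 16340282 to 16340360), and a listed 0 is not read as absence of the transcript.

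Of the activating ARF genes 1 of 5 was called (20.0%, against 32.1% of all tested genes). ARF8 acts with ARF6 in flower maturation, and both are targeted by miR167. ARF8 fell to 8.64 FPKM in syd-5 against 11.3 FPKM in WT (log2 -0.39, with q = 0.0248 in the authors' deposited table). ARF6 was at 26.7 FPKM in syd-5 and 23.2 FPKM in WT and was not called (log2 0.20, with q = 0.297 in the authors' deposited table). Of the miR167 precursors, MIR167D rose, with 3.87 FPKM in syd-5 and 1.34 FPKM in WT (log2 1.53, with q = 0.000351 in the authors' deposited table), MIR167A was not called (3.47 FPKM in syd-5, 3.64 FPKM in WT), and MIR167B and MIR167C were listed at 0. The listed spans of MIR167B and MIR167C are short too, and their 0 is not read as absence. A precursor's FPKM is not a measure of the mature small RNA.

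ARF5 (MP), which initiates flowers and vascular strands, was at 5.80 FPKM in syd-5 and 6.66 FPKM in WT and was not called. ARF7 (NPH4) and ARF19 act together in lateral root formation and tropism. ARF7 was at 13.1 FPKM in syd-5 and 16.7 FPKM in WT (log2 -0.35, with q = 0.596 in the authors' deposited table), and ARF19 at 5.41 FPKM in syd-5 and 4.88 FPKM in WT. ARF7 shares its listed span with the chaperonin gene CPN20, which stood at 542 FPKM in syd-5 and 419 FPKM in WT, so that the value of ARF7 is less certain. The 5 activating ARF genes summed to 59.6 FPKM in syd-5 and 62.8 FPKM in WT, and the 10 repressor-type ARF genes to 300.4 FPKM in syd-5 and 271 FPKM in WT.

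Among the 5 listed receptors AFB1 alone was called. AFB1 (AT4G03190, listed on chromosome 4, 1403117 to 1407139), the family member tied to rapid, non-transcriptional auxin responses in roots, was at 18.2 FPKM in syd-5 and 11.2 FPKM in WT, a rise of 1.63-fold (log2 0.70, with q = 0.000662 in the authors' deposited table). The listed span also holds AT4G03180, which was at 22.3 FPKM in syd-5 and 21.6 FPKM in WT and was not called. AFB1 was the lowest of the 5 receptors in WT and stood above AFB2 in syd-5, an order that was not tested.

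TIR1, the main receptor for transcriptional auxin responses, was at 52.6 FPKM in syd-5 and 46.1 FPKM in WT (log2 0.19, with q = 0.316 in the authors' deposited table). AFB5, which also senses picolinate herbicides, was at 43.0 FPKM in syd-5 and 42.5 FPKM in WT (log2 0.02, with q = 0.950 in the authors' deposited table). AFB2, a target of miR393 like TIR1 and AFB3, was at 17.2 FPKM in syd-5 and 20.3 FPKM in WT and was not called. AFB3 was at 21.7 FPKM in syd-5 and 25.3 FPKM in WT and was not called. Its listed span is shared with AT1G12810. The receptors summed to 153 FPKM in syd-5 and 145 FPKM in WT.

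A list of 10 tested genes held SCF subunits, their regulators and AFB4. None of the 10 was called, against 32.1% of all tested genes, and 3 of 5 co-repressor genes fell, against 18.0% of all tested genes. Of these genes for SCF subunits and their regulators, with AFB4 among them, 0 were called at q of at most 0.05 and 0 had an unadjusted p under 0.05 in the authors' deposited table. Their log2 fold changes lay between -0.22 and 0.16. The cullin gene CUL1 was at 70.7 FPKM in syd-5 and 71.0 FPKM in WT, and the adaptor gene ASK1 at 273 FPKM in syd-5 and 276 FPKM in WT. Of 5 TPL/TPR co-repressor genes none rose, and of the 3 that fell 2 remained called when p from the authors' deposited table was adjusted over all listed genes, the exception being TPR3 (adjusted p = 0.0548). TPR4 fell to 16.5 FPKM in syd-5 against 25.3 FPKM in WT (log2 -0.62, with q = 0.000351 in the authors' deposited table). TPL fell to 38.2 FPKM in syd-5 against 53.9 FPKM in WT (log2 -0.50, with q = 0.0268 in the authors' deposited table), and TPR3 to 6.07 FPKM in syd-5 against 7.89 FPKM in WT (log2 -0.38, with q = 0.0328 in the authors' deposited table). These 3 genes have listed spans shared with other genes. TPR1 and TPR2 had log2 fold changes of -0.27 and -0.25 and were not called.

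Of 17 tested response genes downstream of the ARF factors, 7 rose (41.2%, against 14.1% of all tested genes), 2 fell (11.8%, against 18.0%) and 8 were not called. This describes a short list that was chosen with earlier results of these data known, so the shares are not a test. Of the 7 that rose, 4 are the near-identical genes SAUR19 to SAUR22. GH3.3, an auxin-induced gene for an enzyme that conjugates hormones to amino acids, rose to 9.59 FPKM in syd-5 against 2.09 FPKM in WT (log2 2.20, with q = 0.000351 in the authors' deposited table). GH3.5, of the same enzyme family, fell to 17.1 FPKM in syd-5 against 30.4 FPKM in WT, and the other 2 of 4 tested GH3 genes, GH3.2 and GH3.6, were not called. Among 13 tested other response genes 6 rose, 1 fell and 6 were not called. LBD16, a direct ARF7 and ARF19 target in lateral root initiation, rose to 2.76 FPKM in syd-5 against 0.539 FPKM in WT (log2 2.36, with q = 0.000351 in the authors' deposited table). SAUR15, a small auxin-induced gene, rose to 6.997 FPKM in syd-5 against 1.58 FPKM in WT (log2 2.15, with q = 0.000662 in the authors' deposited table). DAO1, which encodes an enzyme of auxin oxidation, fell to 10.03 FPKM in syd-5 against 25.9 FPKM in WT (log2 -1.37, with q = 0.000351 in the authors' deposited table).

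The growth-related genes SAUR19 to SAUR24 had log2 fold changes between 0.59 and 1.04, and 4 of the 6 rose (SAUR19, SAUR20, SAUR21 and SAUR22). SAUR20 was at 28.2 FPKM in syd-5 and 13.8 FPKM in WT, and SAUR21 at 40.1 FPKM in syd-5 and 21.9 FPKM in WT. They are near-identical copies, and their single values are uncertain. Only some early response genes of the Aux/IAA family were picked for comparison here, and of those IAA2 and IAA19 rose. IAA5 (0.760 FPKM in syd-5, 0.608 FPKM in WT, log2 0.32) and IAA29 (1.72 FPKM in syd-5, 1.42 FPKM in WT, log2 0.28), at low levels, and IAA1 (log2 -0.27) were not called. The differences between these genes were not tested. The selection leaves out IAA3, IAA14 and IAA17, which rose, and IAA4 and IAA6, which were not called. It is therefore no measure of how many auxin-induced Aux/IAA genes rose.

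**Figure D5:**
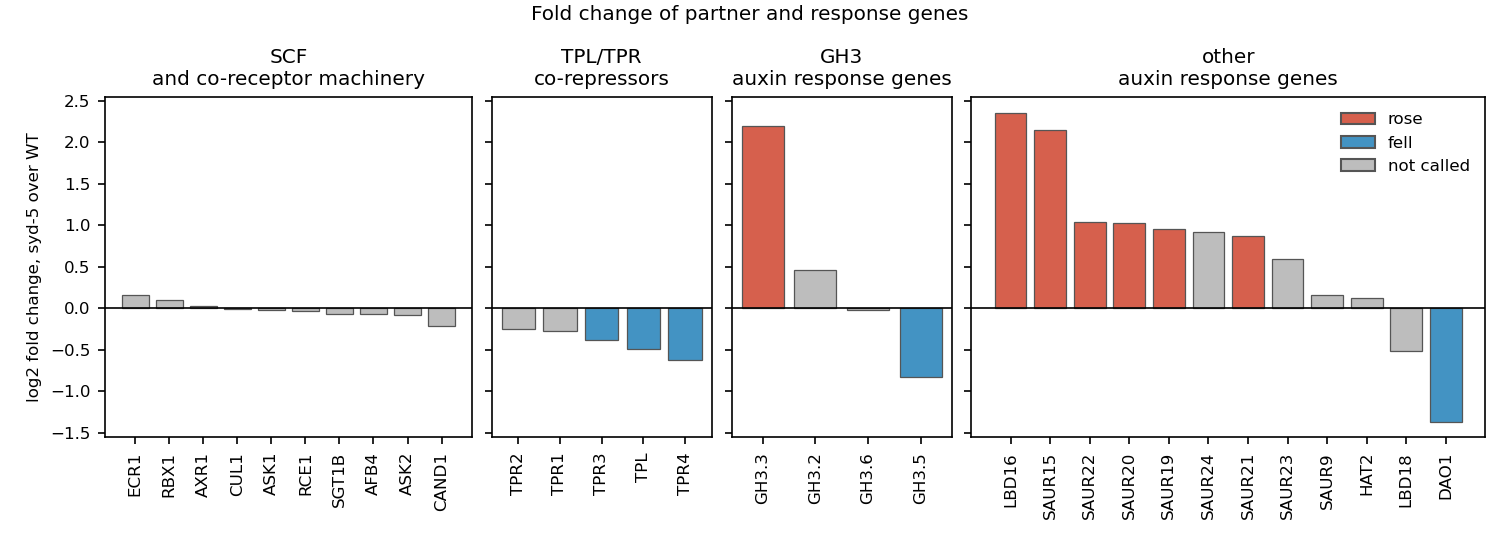
Log2 fold change, syd-5 over WT, of tested genes with a finite fold, coloured by the authors' call. The groups are SCF genes with AFB4, TPL/TPR co-repressor genes, GH3 genes and other auxin response genes. The SCF genes lie between -0.22 and 0.16, the co-repressor genes between -0.62 and -0.25, and GH3.3, LBD16 and SAUR15 above 2; SAUR10, listed at 0 in WT and at 0.893 FPKM in syd-5, has no finite fold and was not called.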

How the data were processed

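The authors' deposited comparison table was the only file. Per the submitters' processing notes, Bowtie2, TopHat2 (version 2.0.4), bedtools and the build TAIR10 were used, with no role given for each. The sources used here do not say which program wrote it. The deposited expression values, 1 per gene and genotype, were read as FPKM, a unit that the file header does not name. The deposited p-value and q-value were taken from the authors unchanged; recomputing the q-values by Benjamini-Hochberg over 19868 tested genes gave the same numbers to within 5.22e-07, and the smallest p, 5e-05, is shared by 2831 genes, 7 members among them. The deposited test statistic, a score, was not used, and the log2 column was recomputed from the FPKM values without a pseudocount. No library's depth is known, and no test could be run on single libraries, so the planned fallback to the authors' q was used. Listed starts were taken as counted from 0 and printed counted from 1. All 48 members matched by name in a RefSeq gene table (TAIR10.1), used for names only. Of the members 4 share their listed span with another gene. Members, lists and pairs of relatives were chosen with earlier results of these data known, and every member is described, the called ones and their relatives with both values. The adjustment was tested on simulated data. Python 3.11.15, pandas 2.3.3 and numpy 2.4.6 were used.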

Additional observations from a re-analysis of the deposited data

How the results depend on the processing

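Of the 18 called members 17 remained called when p was adjusted over all listed genes, the exception being IAA8, and 11 at q of at most 0.01. At that stricter threshold the Aux/IAA genes that fell numbered 3, the ARF genes that rose 1 and that fell 0, all members that fell 3, the TPL/TPR genes that fell 1, the flower markers that fell 1, and the reference genes that rose 0 and that fell 0 (1 each at 0.05, ACT2 and UBQ10). With at least a 1.5-fold change, 2 Aux/IAA genes fell, 1 ARF gene rose, 0 ARF genes fell and 2 members in all fell. Leaving out shared spans left 0 receptor genes that rose. TPL, TPR3 and TPR4, the co-repressor genes that fell, all have shared spans too, so none of them would remain. Adjustment over all listed genes left 0 reference genes that rose and 2 TPL/TPR genes that fell, without TPR3. Dividing folds by the ratio of summed FPKM put the median log2 fold change at 0.059 for Aux/IAA, and turned it to -0.11 for ARF and -0.12 for TIR1/AFB genes; centring on the median gene, pseudocounts of 1 and 0.1, the minimum of 1 FPKM and leaving out shared spans moved these medians by less than 0.1. The direction of a called member could not turn under these settings (0 of 18 did), so this count is no check. A pseudocount keeps the sign of a fold. The scalings shifted log2 by at most 0.13, less than the smallest called change of 0.36. No paired analysis was possible because the table has 1 value per genotype, and for that reason no library was left out. The promoter motif search was not run, since no promoter sequence was used here.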

Other observations

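Genes next to the members were examined as well. Of 60 tested flanking genes that are not members 21 were called (35.0%), against 32.1% of all tested genes. Beside members that rose, 4 of 12 tested flanking genes rose and 1 fell. Beside members that fell, 2 of 9 rose and 3 fell. Among all tested genes 14.1% rose and 18.0% fell. These small counts were not tested, and the examples below go both ways. IAA26 (log2 -0.41) fell together with both of its neighbours, the calmodulin-binding protein gene IQD26 (log2 -1.35, 0.677 FPKM in syd-5 and 1.73 FPKM in WT) and AT3G16510 (log2 -1.05, 8.61 FPKM in syd-5 and 17.9 FPKM in WT). IAA28 fell beside NADP-ME3, which fell (0.254 FPKM in syd-5, 1.18 FPKM in WT), and GA3, a gibberellin synthesis gene, which rose (15.5 FPKM in syd-5, 11.9 FPKM in WT). IAA14 rose beside AT4G14548, 57 bases away, which rose (8.00 FPKM in syd-5, 2.98 FPKM in WT). Risen members also had risen neighbours in AT3G23020 by IAA2 (log2 0.80), XTH9 by AFB1 (log2 0.87) and AT2G33855 by ARF3 (log2 0.48). ARF19, not called, lies 537 bases from AT1G19210, which rose by log2 3.28 (3.24 FPKM in syd-5, 0.334 FPKM in WT). IAA9 fell beside AT5G65660, which rose (178 FPKM in syd-5, 131 FPKM in WT). ARF11 rose beside AT2G46535, which fell (6.86 FPKM in syd-5, 17.3 FPKM in WT).

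By chromosome, 2 members rose and 0 fell of 13 tested on chromosome 1, and 0 rose and 3 fell of 8 tested on chromosome 5, while chromosome 2 had 4 that rose and 1 that fell of 7. On chromosome 3, 2 rose and 1 fell of 9 tested, and on chromosome 4, 2 rose and 3 fell of 8. Among all tested genes, taken over all chromosomes, 14.1% rose and 18.0% fell. The counts per chromosome are small and were not tested, and no difference between chromosomes is read from them.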
